A study of Rattus norvegicus with 6 samples.

Results

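The genes described here are those of the rat major histocompatibility complex (MHC), named RT1, together with the genes that load peptides onto MHC proteins. They were taken as all non-control probes whose name in the array files begins with RT1- or is Cd74, B2m, Tap1, Tap2, Tapbp, Ciita, Nlrc5, Psmb8, Psmb9 or Psmb10, a rule that uses no measured value. This gave 53 gene names with 64 probes, of 26276 names and 30367 probes on the array. There were 35 names with 44 probes for class I heavy chains, 9 names with 11 probes for class II genes, and 9 other names with 1 probe each. Nlrc5, a regulator of class I genes, had no probe under that name.

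RNA labelled as whole heart was measured on 6 single-colour Agilent arrays, 3 from animals given AACO, a formula of Chinese medicine (the labels spell out no letter of the name), and 3 from control animals given double-distilled water. Both groups had TAC, which in heart failure research usually stands for transverse aortic constriction, and both were treated every day for 8 weeks, with AACO at 0.386 µg/g, and killed 24 h after the last dose. The organism is labelled Rattus norvegicus and the probe positions are those of the rat build rn4, although the series text speaks of mice. Strain, sex and age are not given, and it is not stated whether each array is a separate animal, so the p-values cover the spread among these samples, which may be technical, although the series text speaks of different donors for each experiment.

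MHC class I molecules pair a heavy chain with beta-2 microglobulin and show peptides from inside the cell to CD8 T cells. Those peptides are cut by the proteasome, carried into the endoplasmic reticulum by the Tap1-Tap2 transporter and loaded with the help of tapasin. MHC class II molecules are pairs of an alpha and a beta chain that show peptides taken up from outside to CD4 T cells. The invariant chain Cd74 escorts them, DM exchanges its remnant for peptides, and Ciita drives their transcription. Class I is made by nearly all nucleated cells and strongly by endothelium, whereas in the heart class II is known mainly from dendritic cells, some macrophages and B cells.

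Class I heavy chain probes lay slightly lower on the AACO arrays, relative to all probes, and the class II median lay near that of all probes. The median log2 fold change (AACO minus control) was −0.26 over the 33 class I probes tested, with 30 of 33 negative, and 0.02 over the 7 class II probes tested, with 2 of 7 negative. The median over all 20112 probes tested was −0.02. Without scaling between arrays, the class I median was 0.29 and the class II median 0.56, with 0.52 over all probes, so the class I difference is one relative to the other probes of the array. A probe was tested where at least 3 of the 6 arrays had it well above background, which 48 of the 64 were, 45 of them on all 6 arrays. By limma with Benjamini-Hochberg adjustment over all probes, 1 of these 48 fell, RT1-CE16, and 0 rose. Over all probes 10.7% were called in either direction, 5.8% lower and 4.95% higher, so the 1 call is a smaller share than the background. At an unadjusted p under 0.05, 15 of the 48 were lower, 13 of them class I, against 15.9% of all probes lower. At the same threshold 1 of the 48 was higher, against 2891 of all 20112 probes. The difference between the classes was not itself tested.

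**Figure D1:**
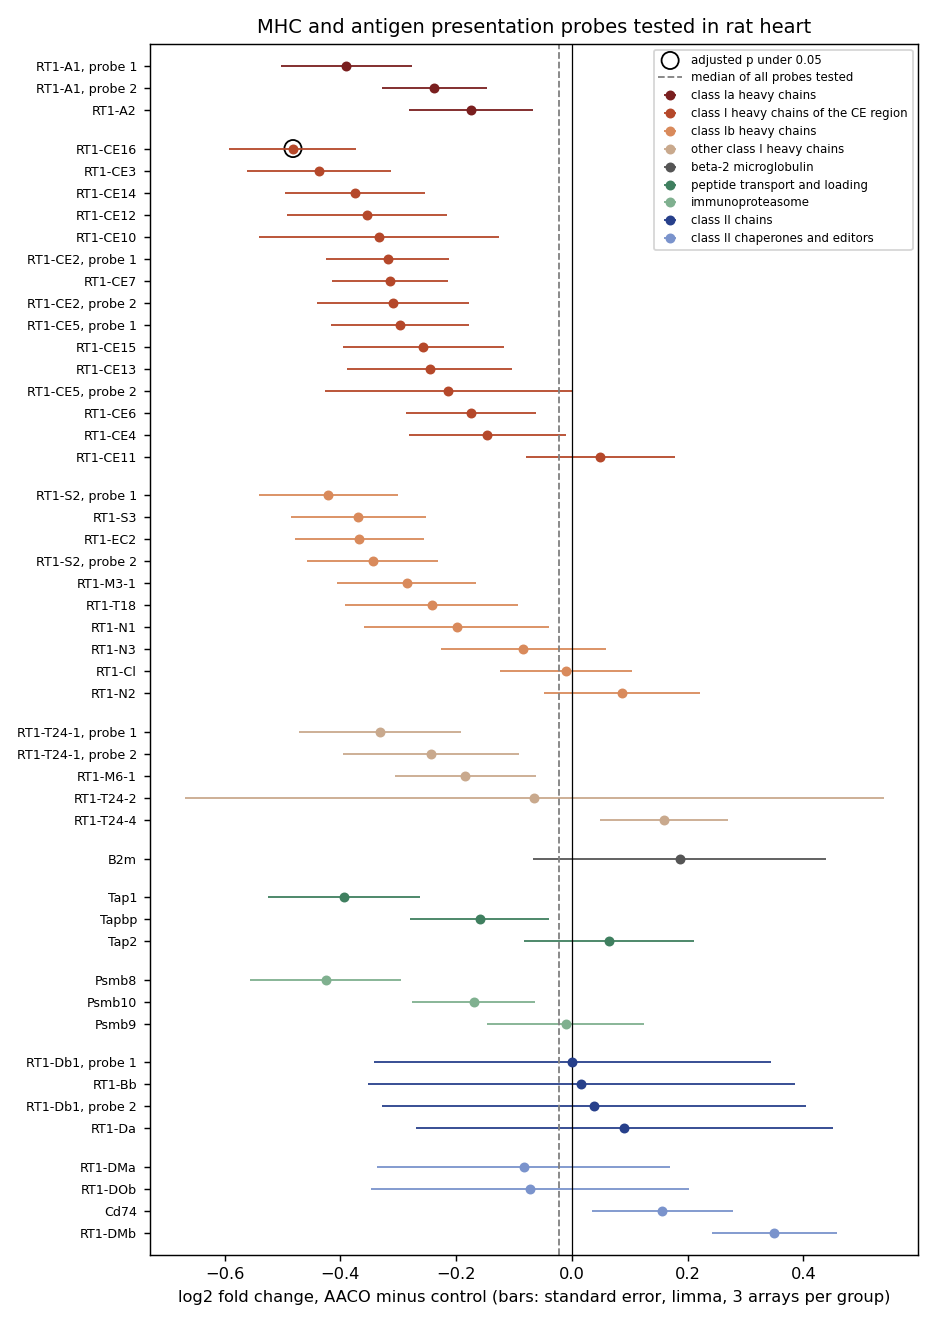
Log2 fold change (AACO minus control, horizontal axis) of each of the 48 probes tested, grouped by role, with standard errors from limma (3 arrays per group). Class I probes lie between −0.48 and 0.16 and class II probes between −0.08 and 0.35; the circle marks RT1-CE16, whose adjusted p was 0.0419, and the dashed line the median of all probes tested.

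All AACO arrays were on 1 slide and all control arrays on another, and the 2 slides were scanned on different dates. Slide, scan date and group therefore cannot be told apart. Of the spots 70.9% to 72.4% were well above background on the AACO arrays and 66.0% to 68.7% on the control arrays, and no non-control spot was saturated. Probes for the cardiomyocyte genes Tnnt2, Tnni3, Actc1, Myl2, Myh6, Mb and Ttn lay at 5.65 or above on every array on the scale used here, log2 signal relative to the array's 75th percentile, where 1 unit is a factor of 2. The 2 probes of Ryr2, the other gene on that list, lay lower, between −1.08 and 1.33. Of 3 atrial genes, Myl7 was at 5.41, 6.85 and −0.44 on the AACO arrays and at −1.66, −2.26 and −0.85 on the control arrays, Sln was at 1.97, 4.43 and 0.21 on the AACO arrays and at −1.05, 0.23 and 0.07 on the control arrays, and Myl4 was at 7.41, 7.34 and 7.42 on the AACO arrays and at 7.48, 7.60 and 7.29 on the control arrays. The 3 AACO samples thus differed widely among themselves in Myl7 and Sln, and little in Myl4. In RNA from whole tissue, fewer cells of a type and less RNA per cell cannot be told apart.

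Some RT1 class I probes share part of their sequence, which bears on how many separate measurements they are. Of the 44 class I probes, 18 resembled a probe of another class I name over at least 30 bases, at 85% identity or with an identical run of 15 bases, in 25 pairs, while 0 of the 11 class II probes did. Identity over the overlap ran from 52.3% to 96.9%, and pairs below 85% entered through the identical run alone. The probes of RT1-A1, a classical class Ia heavy chain, and of RT1-CE11, RT1-CE16 and RT1-Cl below cover one stretch of the heavy chain, each 60 bases long, with capitals where a base differs from the RT1-A1 probe in the overlap.
RT1-A1: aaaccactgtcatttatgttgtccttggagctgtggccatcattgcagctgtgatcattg
RT1-CE11: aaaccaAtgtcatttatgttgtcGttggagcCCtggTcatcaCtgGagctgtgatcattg
RT1-CE16: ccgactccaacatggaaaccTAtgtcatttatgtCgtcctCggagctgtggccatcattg
RT1-Cl: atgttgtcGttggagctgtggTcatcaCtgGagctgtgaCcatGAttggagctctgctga

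RT1-CE11 differed from this RT1-A1 probe at 7 of 60 shared positions, RT1-CE16 at 4 of 45 and RT1-Cl at 7 of 45. In rn4 the RT1-A1 probe lies at chr20:5059134-5059193, the RT1-CE16 and RT1-CE11 probes on the unplaced part of chromosome 20, and the RT1-Cl probe is unmapped. The array annotation itself assigned 9 of the 64 probes, all class I, to a second gene. Signal from near-identical genes could not be separated from that of the named gene, and its part in the results was not tested.

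The classical class Ia heavy chains, RT1-A1 and RT1-A2, present peptides to CD8 T cells. The RT1-A1 probe shown above read 4.31, 4.54 and 4.52 on the AACO arrays, against 4.90, 4.73 and 4.91 on the control arrays. The second RT1-A1 probe read 5.93, 6.0 and 5.97 on the AACO arrays, against 6.20, 6.15 and 6.26 on the control arrays. All AACO values lay below all control values for both probes, as they did for RT1-A2 (1.82, 2.10 and 1.99 against 2.15, 2.12 and 2.16). The log2 fold changes were −0.39 ± 0.11 (SE; adjusted p = 0.0756, limma) and −0.24 ± 0.09 (adjusted p = 0.138) for RT1-A1 and −0.17 ± 0.11 (adjusted p = 0.318) for RT1-A2, and 0 of the 3 class Ia probes passed the test.

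The CE region holds further class I heavy chain genes, with 15 probes for 13 names, and all 15 were tested. RT1-CE16 read 3.34, 3.44 and 3.49 on the AACO arrays, against 4.03, 3.77 and 3.92 on the control arrays. It fell to 0.716 of the control level, a log2 fold change of −0.48 ± 0.11 (SE, n = 3 arrays per group; 95% interval −0.75 to −0.22; adjusted p = 0.0419, limma). Leaving out any 1 of the 6 arrays ended this call, with adjusted p between 0.0546 and 0.133 and a log2 fold change between −0.55 and −0.42. RT1-CE2, through its probe of higher signal, read 3.76, 3.98 and 3.97 on the AACO arrays, against 4.25, 4.16 and 4.26 on the control arrays (log2 fold change −0.32 ± 0.11, adjusted p = 0.104). RT1-CE3 had −0.44 ± 0.12 (adjusted p = 0.0717) and RT1-CE14 −0.37 ± 0.12 (adjusted p = 0.0963). The median of the 15 was −0.31, 14 of 15 were negative, and the exception was RT1-CE11 at 0.05 ± 0.13 (adjusted p = 0.824). RT1-CE10, RT1-CE12, RT1-CE13, RT1-CE15, RT1-CE4, RT1-CE5, RT1-CE6 and RT1-CE7 lay between −0.35 and −0.15.

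Among the class Ib genes, which encode less polymorphic heavy chains with more specialised roles, 10 of 15 probes were tested and their median log2 fold change was −0.26. RT1-S2 had probes at −0.42 ± 0.12 (adjusted p = 0.0716) and −0.34 ± 0.11 (adjusted p = 0.0999), RT1-S3 at −0.37 ± 0.12 (adjusted p = 0.0923) and RT1-EC2 at −0.37 ± 0.11 (adjusted p = 0.0831). RT1-M3-1, the counterpart of the mouse M3 molecule that presents N-formylated peptides, had −0.28 ± 0.12 (adjusted p = 0.170). RT1-N1, RT1-N3 and RT1-Cl had −0.20, −0.08 and −0.01, and RT1-N2 had 0.09 ± 0.13 (adjusted p = 0.698). For these 10 probes and the 5 tested of the remaining class I names (RT1-M6-1, RT1-T24-1, RT1-T24-2 and RT1-T24-4, median −0.18), 0 passed the test. Over all 33 class I probes tested, every AACO array was below every control array for 17, against 19.8% of all probes, and every AACO array was above for 0, against 17.3%. Not all of these probes are independent of each other, as the shared sequences show.

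**Figure D2:**
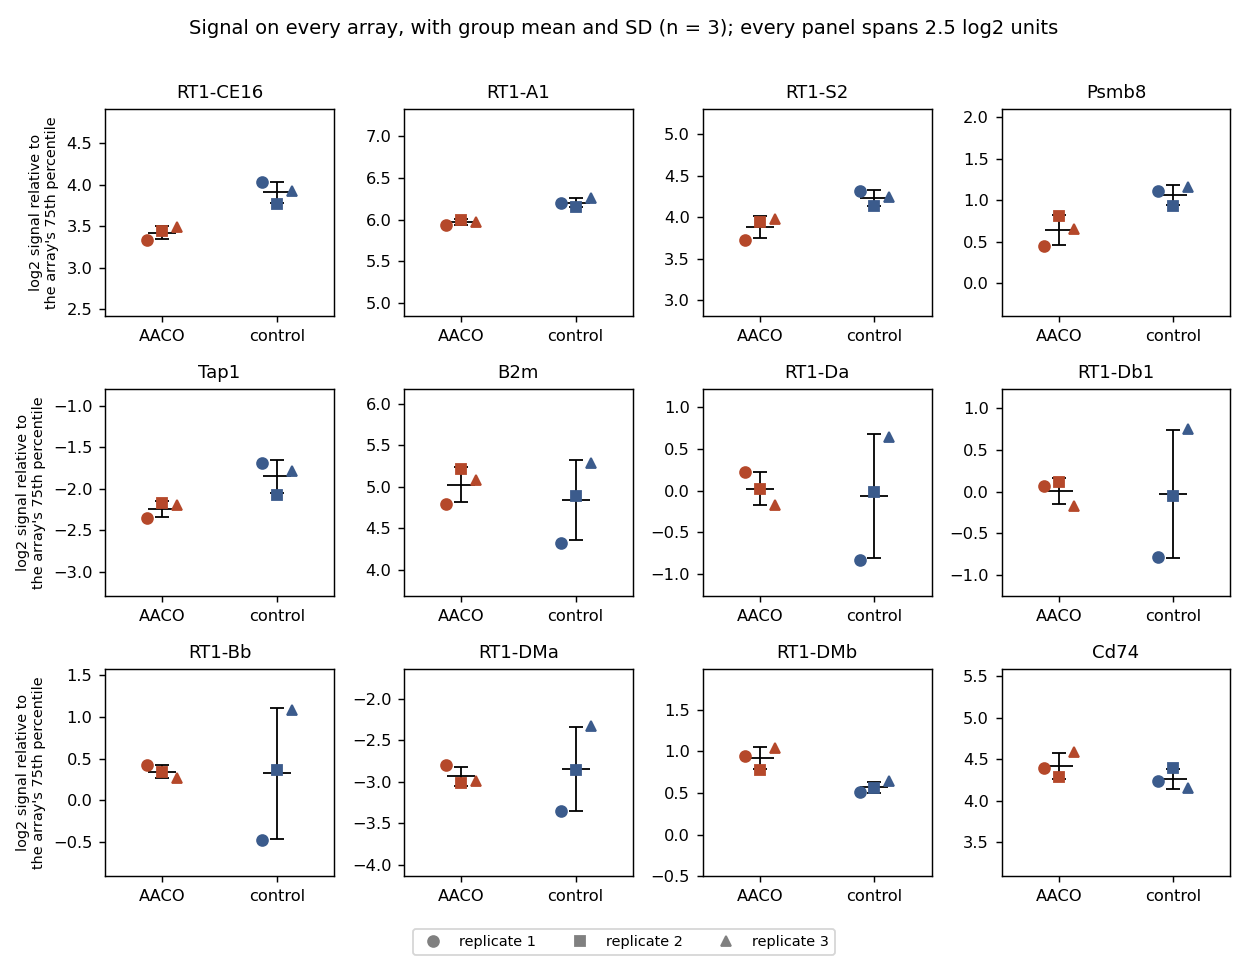
Log2 signal relative to the array's 75th percentile (vertical axis, the same span in every panel) of 12 genes on each of the 6 arrays, through the tested probe of highest mean signal, AACO left and control right, with mean and SD (n = 3). RT1-CE16, RT1-A1, RT1-S2, Psmb8 and Tap1 have all AACO points below all control points, RT1-DMb has them above, and RT1-Da, RT1-Db1, RT1-Bb and RT1-DMa spread far more among the control arrays than among the AACO arrays.

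For RT1-M6-1 the deposited probes disagreed. One probe, at chr20:1660276-1660335 in rn4, was well above background on all 6 arrays and read 3.29, 3.62 and 3.46 on the AACO arrays and 3.72, 3.66 and 3.54 on the control arrays, with overlap between the groups. The other, at chr20:1660528-1660587, was well above background on none. The first is shown with the RT1-CE5 and RT1-S2 probes it resembles, with capitals where those differ from it, because they share much of its sequence.
RT1-M6-1: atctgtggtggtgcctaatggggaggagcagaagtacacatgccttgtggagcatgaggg
RT1-CE5: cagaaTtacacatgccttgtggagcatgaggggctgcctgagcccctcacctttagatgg
RT1-S2: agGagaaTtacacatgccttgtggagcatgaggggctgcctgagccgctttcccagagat

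RT1-CE5 differed from the RT1-M6-1 probe at 1 of 32 shared positions and RT1-S2 at 2 of 34. The array annotation also lists a transcript of RT1-A3 for this RT1-M6-1 probe. The RT1-M6-1 probe that was not well above background reads as follows.
RT1-M6-1: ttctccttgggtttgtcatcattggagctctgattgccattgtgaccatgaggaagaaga

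The class I names with no probe tested were RT1-M1-2, RT1-M1-4, RT1-M1-5, RT1-M10-1, RT1-M2, RT1-M4 and RT1-M5. Their probes were not well above background on any array, except that of RT1-M4 on 1 AACO array. RT1-T18 had 3 probes, 1 well above background on all 6 arrays (log2 fold change −0.24 ± 0.15, adjusted p = 0.318), 1 on 2 AACO arrays and 1 on none.

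Beta-2 microglobulin is the light chain that class I heavy chains pair with. B2m read 4.79, 5.21 and 5.08 on the AACO arrays, against 4.33, 4.89 and 5.29 on the control arrays, so the groups overlapped, with a log2 fold change of 0.19 ± 0.25 (95% interval −0.42 to 0.80; adjusted p = 0.655). The interval is wide enough to hold the class I median.

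Of the peptide transport and loading genes, Tap1, one half-transporter, read −2.35, −2.17 and −2.20 on the AACO arrays, against −1.69, −2.07 and −1.79 on the control arrays. The groups did not overlap, and the log2 fold change was −0.39 ± 0.13 (adjusted p = 0.105). Its partner Tap2 read −0.77, −0.33 and −0.68 on the AACO arrays and −0.74, −0.72 and −0.52 on the control arrays, a log2 fold change of 0.06 ± 0.15 (adjusted p = 0.800). Tapbp, which encodes tapasin, read 0.01, −0.21 and −0.07 on the AACO arrays and 0.20, −0.10 and 0.11 on the control arrays (−0.16 ± 0.12, adjusted p = 0.410). With normexp background correction Tap1 passed the test (log2 fold change −0.51, adjusted p = 0.0318).

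The immunoproteasome subunits replace constitutive ones and shape the peptides that reach class I. Psmb8 read 0.45, 0.81 and 0.66 on the AACO arrays, against 1.11, 0.93 and 1.16 on the control arrays, without overlap (log2 fold change −0.42 ± 0.13, adjusted p = 0.0864). Psmb9 read 1.93, 1.98 and 1.82 on the AACO arrays, against 2.10, 1.68 and 1.98 on the control arrays (−0.01 ± 0.14, adjusted p = 0.968). Psmb10 read 2.47, 2.66 and 2.47 on the AACO arrays, against 2.79, 2.63 and 2.69 on the control arrays (−0.17 ± 0.11, adjusted p = 0.327). The last 2 overlapped between the groups.

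The class II alpha and beta chains varied strongly among the control arrays and little among the AACO arrays. Rat RT1.B and RT1.D are the counterparts of human DQ and DR. RT1-Da, the D alpha chain, read 0.22, 0.02 and −0.17 on the AACO arrays, against −0.84, −0.02 and 0.65 on the control arrays. RT1-Db1, a D beta chain, read 0.07, 0.12 and −0.17 on the AACO arrays, against −0.79, −0.05 and 0.75 on the control arrays. RT1-Bb, the B beta chain, read 0.42, 0.34 and 0.26 on the AACO arrays, against −0.48, 0.36 and 1.09 on the control arrays. For each, control replicate 1 was the lowest and control replicate 3 the highest of the 6 arrays. The SD of the 4 tested probes of these chains was 0.08 to 0.21 on the AACO arrays and 0.70 to 0.79 on the control arrays; a difference in spread with 3 arrays per group was not tested.

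The log2 fold changes of these chains were 0.09 ± 0.36 for RT1-Da (95% interval −0.77 to 0.96), 0.04 ± 0.37 for RT1-Db1, 0.00 ± 0.34 for its second probe and 0.02 ± 0.37 for RT1-Bb, with adjusted p between 0.887 and 0.999. These intervals span changes in either direction that exceed the class I median. The sign of the class II median depended on which arrays entered. It was −0.34 without control replicate 1 (5 of 7 probes negative), 0.38 without control replicate 3 (0 of 7 negative), and −0.02 without AACO replicate 1 (5 of 7 negative) or without AACO replicate 2 (4 of 7 negative). With the mean level of the atrial genes Myl7 and Sln as a covariate it was −0.22. The class I median stayed between −0.36 and −0.20 when each array was left out in turn.

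The class II probes behind these values are shown to tell them from the probes that gave no signal.
RT1-Da: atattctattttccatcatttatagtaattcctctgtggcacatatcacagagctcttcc
RT1-Db1: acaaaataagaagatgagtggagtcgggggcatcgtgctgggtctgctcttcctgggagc
RT1-Bb: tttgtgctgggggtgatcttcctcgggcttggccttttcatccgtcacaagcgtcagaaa

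These lie at chr20:4641104-4641163, chr20:4672665-4672724 and chr20:4732187-4732246 in rn4. The second RT1-Bb probe, at chr20:4730533-4730583, and the probe for RT1-Ba, the B alpha chain, at chr20:4700973-4701032, were not well above background on any array and read as follows.
RT1-Bb: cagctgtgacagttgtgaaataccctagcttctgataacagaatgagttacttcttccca
RT1-Ba: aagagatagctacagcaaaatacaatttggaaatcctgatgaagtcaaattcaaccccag

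RT1-Ba thus has no level here, although its partner chain has. RT1-Ha, of the DP-like locus, was not well above background on any array either.

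The class II escorts and editors did not follow the spread of the chains throughout. Cd74, the invariant chain, read 4.39, 4.28 and 4.58 on the AACO arrays, against 4.24, 4.39 and 4.15 on the control arrays (log2 fold change 0.16 ± 0.12, adjusted p = 0.424), and control replicates 1 and 3 differed by little. RT1-DMa, the alpha chain of the editor DM, read −2.80, −3.01 and −2.99 on the AACO arrays, against −3.35, −2.86 and −2.33 on the control arrays, the same order of control arrays as for the chains (−0.08 ± 0.25, adjusted p = 0.849). RT1-DMb, its beta chain, read 0.95, 0.78 and 1.04 on the AACO arrays, against 0.51, 0.56 and 0.64 on the control arrays. It was the 1 tested member probe for which every AACO array lay above every control array (log2 fold change 0.35 ± 0.11, 95% interval 0.09 to 0.61, adjusted p = 0.0867). RT1-DOb, part of the DM inhibitor DO, had −0.07 ± 0.28 (adjusted p = 0.882) and was well above background on 3 AACO arrays and 1 control array. RT1-DOa was not well above background on any array. Ciita was well above background on 2 AACO arrays and 0 control arrays and was not tested.

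Markers of cells that carry MHC moved on the same arrays in different ways, and their part in the results was not tested. Each probe was centred on its mean over the 6 arrays, and the centred values were averaged over the tested probes of a set. The class I set (33 probes) stood at −0.23, −0.03 and −0.09 on the AACO arrays, against 0.12, 0.04 and 0.20 on the control arrays. The class II chains (4 probes) stood at 0.14, 0.07 and −0.16 on the AACO arrays, against −0.78, 0.01 and 0.72 on the control arrays. T cell markers (7 probes) stood at −0.10, 0.02 and −0.07 on the AACO arrays, against −0.46, 0.12 and 0.49 on the control arrays. One of the 7 fell and 0 rose: Cd4, the co-receptor for class II, which in the rat is also carried by macrophages, read −5.39, −5.30 and −5.30 on the AACO arrays, against −4.52, −4.27 and −3.88 on the control arrays, without overlap (log2 fold change −1.11 ± 0.17, adjusted p = 0.0161, limma). Among all probes 5.8% were called lower and 4.95% higher. For the mean over the 7 T cell probes, control replicate 1 was lowest and control replicate 3 highest. Dendritic cell markers (6 probes) had the same order, at 0.10, 0.05 and −0.13 on the AACO arrays and −0.37, 0.01 and 0.33 on the control arrays. Of the dendritic cell probes tested, those of Batf3, Clec9a and Flt3 followed this order of control arrays, and those of Ccr7, Itgax and Zbtb46 did not.

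Macrophage markers (15 probes) stood at −0.60, −0.49 and −0.56 on the AACO arrays, against 0.35, 0.51 and 0.78 on the control arrays. Of these 15 probes 11 fell, with a median log2 fold change of −1.16, while the median of the 4 class II chain probes was 0.03 with the wide intervals given above. For this and the counts of calls that follow, the shares over all probes were 5.8% lower and 4.95% higher. Endothelial markers (9 probes) stood at 0.08, −0.01 and −0.06 on the AACO arrays, against −0.05, −0.01 and 0.05 on the control arrays. Among the control arrays, replicate 1 was lowest and replicate 3 highest for the mean of the macrophage markers too. The endothelial mean had the same order over a narrow range, but its probes mostly did not share it. The Cldn5 probe followed this order, Pecam1 was nearly level, and the probes of Cdh5, Kdr, Tek, Tie1 and Vwf did not follow it. Kdr read 4.51, 4.32 and 4.20 on control replicates 1, 2 and 3. Of the 9 endothelial probes 7 were negative, with a median of −0.20; Pecam1 had −0.19 (adjusted p = 0.191) and Kdr −0.42 (adjusted p = 0.0689). One of 3 Vwf probes rose, by 1.98 on the log2 scale (adjusted p = 0.00616), and the other two had −0.00 and 0.07. Of the other leukocyte lists, Retnlg fell among 3 neutrophil probes tested (−1.66, adjusted p = 0.0100, limma) and Cd52 among 5 pan-leukocyte probes (−1.31, adjusted p = 0.0188, limma). By limma 0 of 8 NK cell probes and 0 of 6 dendritic cell probes passed. At an unadjusted p under 0.05 there were 0 and 2 of them, against 6085 of all 20112 probes. B cell markers were at background: 1 of 7 probes was tested, and Ms4a1, Cd79a, Cr2 and Blk were well above background on no array. The defining T cell gene Cd3e was well above background on no array, while Cd3g read −3.79, −3.46 and −3.56 on the AACO arrays, against −4.94, −3.61 and −2.74 on the control arrays.

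**Figure D3:**
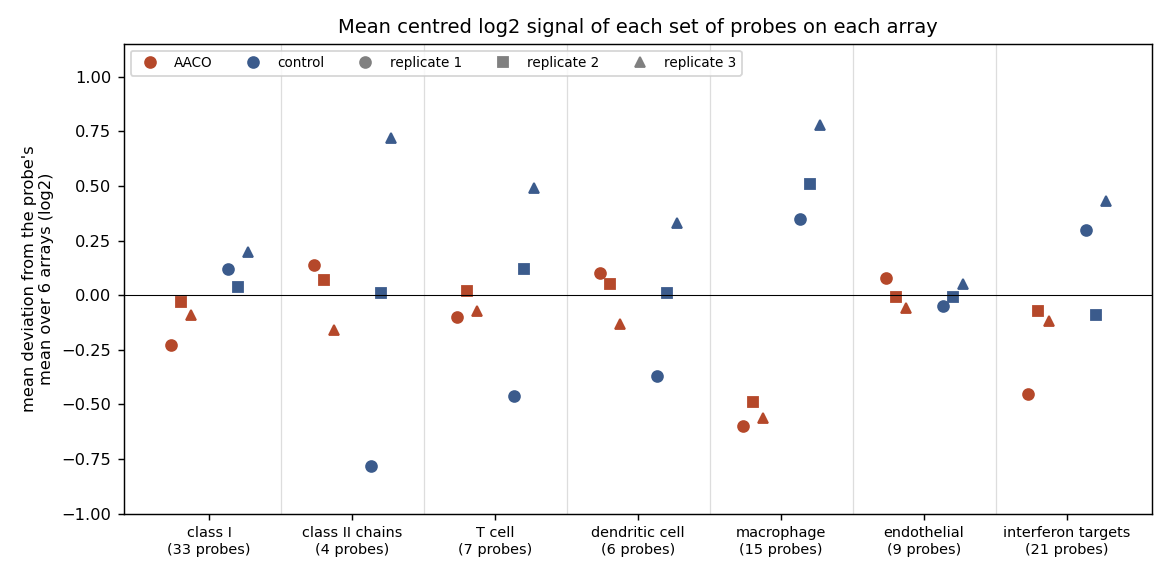
Mean deviation of each set's tested probes from their mean over the 6 arrays (vertical axis, log2) on each array, AACO left and control right within each set. The means of class II chains and T cell, dendritic cell, macrophage and endothelial markers share the order of the control arrays. Replicate 1 is the lowest of these arrays and replicate 3 the highest. The endothelial mean spans only −0.05 to 0.05 there, and the probes of Cdh5, Kdr, Tek, Tie1 and Vwf do not have this order. Macrophage markers lie at −0.60 to −0.49 in AACO samples and at 0.35 to 0.78 in control samples.

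Of the genes around these pathways, those of class II peptide processing included 3 that fell of 9 genes (10 probes) tested. Over all probes 5.8% were called lower. Ctss, the cathepsin that trims the invariant chain, read −0.94, −0.58 and −0.65 on the AACO arrays, against 0.84, 0.94 and 1.30 on the control arrays (log2 fold change −1.75, adjusted p = 0.00658). March1, a ubiquitin ligase that removes class II from the surface, read −4.16, −4.71 and −4.36 on the AACO arrays, against −2.98, −3.28 and −3.31 on the control arrays (−1.22, adjusted p = 0.0132). Ctsl, named Ctsl1 on the array, read 4.35, 4.81 and 4.72 on the AACO arrays, against 5.60, 5.75 and 5.63 on the control arrays (−1.03, adjusted p = 0.0128). For all 3 the groups were apart. Of the others Ifi30, a thiol reductase that unfolds antigens, had −0.16 (adjusted p = 0.390), and the list's median over its 10 probes was −0.16.

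Interferon gamma is the classical inducer of both classes. Ifng itself was well above background on no array. Of 21 probes for interferon targets 1 fell, where 5.8% of all probes were called lower. This was Rsad2, an antiviral protein, at 0.32, 0.44 and 0.78 on the AACO arrays, against 1.66, 1.07 and 1.73 on the control arrays (−0.97, adjusted p = 0.0393, limma). Isg15 had −0.78 (adjusted p = 0.0638) and Oas1a −0.69 (adjusted p = 0.0963). The interferon target list had 18 of 21 probes negative, against 10588 of all 20112 probes, and a median of −0.49. The list's centred mean was −0.45, −0.07 and −0.12 on the AACO arrays, against 0.30, −0.09 and 0.43 on the control arrays. Its lowest array, AACO replicate 1, and its highest, control replicate 3, were also those of the class I set.

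The chaperones of class I assembly (7 probes, among them Calr, Canx and Pdia3) had a median log2 fold change of 0.03 and 0 calls. The constitutive proteasome subunits and activators (6 probes) had a median of −0.04 and 0 calls, with Psme1 at 0.26 (adjusted p = 0.240) and Psmb5, which Psmb8 replaces, at −0.05 (adjusted p = 0.786). The transcription factors that bind MHC promoters (14 probes) had a median of −0.14 and 0 calls; a probe of Rela, an NF-kappaB subunit, had −0.34 (adjusted p = 0.0630), and Rfx5, which binds the X box of class II promoters, had −0.43 (adjusted p = 0.168). Of 4 probes for ligands that costimulate or inhibit T cells 0 passed, and Cd80 was well above background on no array. A probe of Cd40 had −0.54 (adjusted p = 0.0779, limma) and its second probe −0.21 (adjusted p = 0.457, limma). Cd274 had −0.36 (adjusted p = 0.127, limma). Class I-like genes outside RT1 (4 probes) had 0 calls, with Fcgrt, the neonatal Fc receptor, at −0.33 (adjusted p = 0.235, limma) and Cd1d1, which presents lipids, at 0.04 (adjusted p = 0.849, limma). By limma the unadjusted p was under 0.05 for 0 of the assembly, proteasome and class I-like probes, 2 transcription factor probes and 2 ligand probes. Over all 20112 probes tested it was under 0.05 for 6085.

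**Figure D4:**
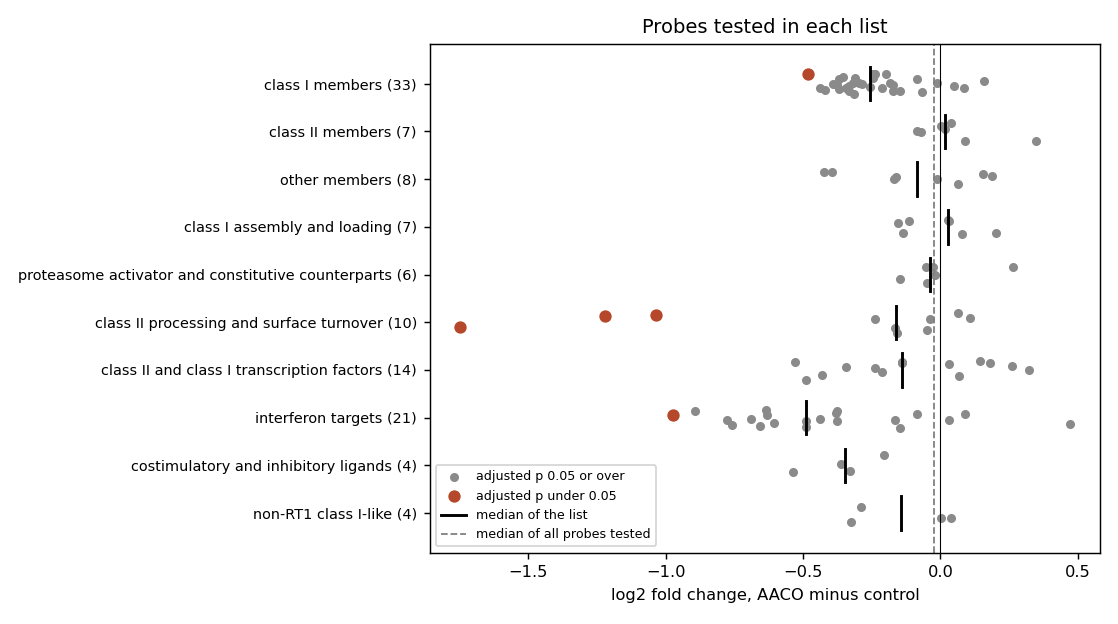
Log2 fold change (AACO minus control, horizontal axis) of every probe tested among the members and the lists shown, with the number of probes in brackets, the list's median as a black bar and calls in red. Class I members have a median of −0.26 and class II members of 0.02; Ctss, March1 and Ctsl stand apart at −1.75 to −1.03.

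The promoters of the 2 classes differed in how often they held the letters searched for. RT1-CE16, RT1-Da and Psmb8 are shown as examples of class I, class II and other member promoters that hold such letters. They are not typical of all promoters in their class. RefSeq sequences of build GRCr8, from 250 bases before the start site to 50 after, were found for 43 members. Searched on both strands, GGGGATTCC, the NF-kappaB site of the class I enhancer, occurred in 8 of 27 class I promoters and 0 of 8 class II promoters, against 0.28% of all 33469 promoters. The interferon response letters GAANNGAAA occurred in 12 of 27 class I and 0 of 8 class II promoters (8.54% of all), and the variant GAAANNGAA in 6 of 8 promoters of the other members, Tap1, Tap2, Tapbp, Psmb8, Psmb10 and B2m (9.71% of all). The X box letters AACNGATG occurred in 3 of 8 class II promoters, those of RT1-Da, RT1-Db1 and RT1-DOb, and in 0 class I promoters (2.58% of all). CCAAT occurred in 8 of 8 class II and 19 of 27 class I promoters (37.49% of all). The 2 interferon forms can overlap.

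In the RT1-CE16 promoter (chr20:3265394-3265693, minus strand) the capitals mark GGGGATTCC at −131, GAANNGAAA on the reverse strand at −110 and CCAAT at −12 from the start site. In the RT1-Da promoter (chr20:4515165-4515464, plus strand) they mark AACNGATG at −80 and CCAAT on the reverse strand at −49. In the Psmb8 promoter (chr20:4656982-4657281, minus strand) they mark CCAAT on the reverse strand at −73 and, overlapping each other, GAAANNGAA at −3 and GAANNGAAA at 2, both on the reverse strand.
RT1-CE16: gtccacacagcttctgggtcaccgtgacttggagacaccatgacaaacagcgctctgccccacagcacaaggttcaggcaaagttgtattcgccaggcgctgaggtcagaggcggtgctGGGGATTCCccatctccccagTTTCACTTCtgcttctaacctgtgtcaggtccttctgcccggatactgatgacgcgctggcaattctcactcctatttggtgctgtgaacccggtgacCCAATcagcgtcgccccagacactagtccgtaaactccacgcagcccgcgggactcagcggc
RT1-Da: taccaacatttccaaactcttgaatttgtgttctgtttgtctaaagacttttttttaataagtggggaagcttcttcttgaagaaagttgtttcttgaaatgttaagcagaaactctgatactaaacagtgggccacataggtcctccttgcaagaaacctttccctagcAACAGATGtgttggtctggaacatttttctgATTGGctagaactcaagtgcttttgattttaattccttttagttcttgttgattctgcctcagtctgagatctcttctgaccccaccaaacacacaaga
Psmb8: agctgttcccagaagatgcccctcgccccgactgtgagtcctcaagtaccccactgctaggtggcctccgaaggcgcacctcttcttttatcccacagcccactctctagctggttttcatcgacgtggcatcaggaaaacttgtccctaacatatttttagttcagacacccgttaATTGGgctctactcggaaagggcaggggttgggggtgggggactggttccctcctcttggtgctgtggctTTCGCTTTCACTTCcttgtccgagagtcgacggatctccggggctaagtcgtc

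These letters were set beside the differences between the groups. The 9 tested probes of class I genes with GGGGATTCC had log2 fold changes from −0.48 to 0.05 with a median of −0.25, and the 19 of class I genes whose promoter lacks it had a median of −0.26. For GAAANNGAA the median was −0.36 over 4 class I probes with it and −0.24 over 24 without, for GAANNGAAA −0.24 over 14 with it and −0.30 over 14 without, and for CCAAT −0.25 over 19 with it and −0.31 over 9 without. For AACNGATG it was 0.02 over 4 class II probes with it and −0.03 over 2 without. These differences were not tested. A match is a description of these letters and not a measured binding site.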

How the data were processed

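Scanner images were quantified by Agilent Feature Extraction 10.7.1.1, per the file headers; the deposited intensity used here is its processed Cy3 signal per spot, corrected for background but on no common scale. A deposited matrix of log2 values, whose making is not given in the sources used here, served as an alternative. The deposited flag values (0 or 1, a unit of their own) gave well-above-background and outlier spots. Per the labels' protocols, 0.2 ug of mirVana-extracted RNA was labelled.

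Control and outlier spots were left out, spots of a probe were averaged, and log2 signal was set relative to each array's 75th percentile. The 20112 probes that at least 3 of 6 arrays showed well above background were tested per probe, without collapsing to genes, with limma 3.58.1 in R 4.3.3 (lmFit, eBayes, two-sided, Benjamini-Hochberg over all probes, adjusted p under 0.05); the fit was tested on simulated data. Intervals are 95% intervals from that fit, and 3 arrays per group limit precision. Samples were grouped by their treatment label. Names are those of the array; 56 of 64 member probes matched a RefSeq symbol.

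The members and lists were chosen with earlier results of these data known. Values on every array are given for each call and for the 3 tested probes of highest signal per role, and for list genes that passed, with up to 3 others of smallest p; other members, markers and list genes were named after their values were seen. Some list and marker results and a probe sequence are not reported here. Alternatives covered background correction, scaling, filters, 1 probe per name, an intensity trend, an atrial covariate and leaving out each array.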

Additional observations from a re-analysis of the deposited data

How the results depend on the processing

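The class I median minus that of all probes lay between −0.35 and −0.13 under every alternative run, and the class II median minus that of all probes between −0.31 and 0.41. Without scaling the median of all probes was 0.52, and the class I and class II medians became 0.29 and 0.56; with spike-in scaling the median of all probes was 0.15 and the class I median −0.09. RT1-CE16 then had 0.06 without scaling (adjusted p = 0.85). Member probes lower numbered 4 with normexp (RT1-CE3, RT1-CE6, RT1-T24-2 and Tap1), 4 with no filter (RT1-Ba, RT1-CE16, RT1-M1-5 and RT1-M6-1), 5 with the intensity trend, 0 without scaling, 0 with spike-in scaling, 0 with the atrial covariate and 0 without each array in turn. With no filter, the called probes other than RT1-CE16 were well above background on no array, and the median of all probes was −0.14. Member probes higher numbered 4 without scaling (B2m, Cd74, RT1-DMb and RT1-T24-4). The atrial covariate gave a class II median of −0.22 and left 0 probes higher and 0 lower of all probes by limma, with 2568 at an unadjusted p under 0.05. Of all probes, 996 were higher and 1166 lower. Higher calls were 6341 without scaling and 122 to 1095 when each array was left out. Lower calls were 2334 with normexp, 3460 with no filter, 267 without scaling, 446 with spike-in scaling and 203 to 1368 when each array was left out. Lower calls made up 53.9% of all calls, against 73.7% with normexp, 77% with no filter, 23.2% with spike-in scaling and 4.04% without scaling. The cause was not tested. For the 17 named member probes, 256 of 271 alternative values kept their side of the threshold. All of these probes but RT1-CE16 were uncalled in the main fit, so most of these values only stayed uncalled. RT1-CE16 kept its call in 6 of 16 alternatives and lost it with normexp (adjusted p = 0.0738, limma). Slide or scan date as a block could not be fitted, since each slide and each date holds 1 group. No paired analysis was possible because the titles' numbers are not stated to pair samples and the groups share fewer than 2 of them. Signal over background limits RT1-Ba, RT1-Ha, RT1-DOa, Ciita and 7 class I names to no tested value.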

Other observations

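Probes outside the naming rule whose description gives them as MHC genes were measured too. Rt1.aa, described as the RT1.Aa class I alpha chain, read 3.78, 4.02 and 3.96 on the AACO arrays, against 4.44, 4.07 and 4.39 on the control arrays, without overlap (log2 fold change −0.38 ± 0.14, adjusted p = 0.120, limma). LOC688090, described as similar to an RT1.B beta chain, read 0.60, 0.38 and 0.45 on the AACO arrays, against −0.41, 0.39 and 1.11 on the control arrays, with control replicate 1 lowest and control replicate 3 highest as for the named class II chains (0.12 ± 0.36, adjusted p = 0.854). A second invariant chain probe, TC588776, had 0.17 ± 0.13 (adjusted p = 0.421), close to the Cd74 probe at 0.16. Class I-like predictions LOC686860, LOC683761 and LOC684280 had −0.03, 0.05 and 0.14, and LOC687144 had −0.73 ± 0.69 (adjusted p = 0.515). The class I-related gene Mr1 was well above background on no array, and Micb on 2 AACO arrays and 0 control arrays.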
